A study of Rattus norvegicus with 8 samples.

Results

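Chemokines are small secreted proteins that draw leukocytes along a gradient, and their receptors are cell-surface proteins that signal through inhibitory G proteins. The CC and CXC families are named for the spacing of conserved cysteines in the ligand, and many ligands share receptors. In the liver they are made by Kupffer cells, endothelium, stellate cells, hepatocytes and resident lymphocytes, and they place immune cells in the sinusoids and portal tracts.

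The set described here held every probe, controls left out, whose gene name on the array began with Ccl, Cxcl, Ccr or Cxcr followed by a digit, or was Cx3cl1, Cx3cr1, Xcl1 or Xcr1. These were 110 of 46883 probes and 52 of 25511 gene names, of which 20 were CC ligands, 12 CXC ligands, 2 ligands of the XC or CX3C type and 18 receptors. The rule used gene names only, though the family was picked for description with earlier results of these data known.

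Liver RNA from male Sprague Dawley rats, an outbred laboratory strain, was hybridised to 1-colour oligonucleotide arrays. In the high-fat group, 4 samples came from rats given feed with 60% fat for 12 weeks, and in the control group 4 samples came from rats given normal feed for 12 weeks. Both groups are labelled with a weight of 180 to 200 g, with no time given for it. The series addresses diet-induced insulin resistance. Whether every sample is a different animal is not stated in the labels, and p-values below cover the spread between samples.

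Values are normalized log2 intensities, on which 0 is the level of the 75th percentile of the brighter probes of that array and a difference of 1 is a doubling. A change is the mean of the high-fat arrays minus the mean of the control arrays, tested with limma over 31546 probes, and "passed" means an adjusted p under 0.05. The levels of different probes are not comparable with each other. Arrays had from 50.4% (control replicate 1) to 71.9% (control replicate 4) of all probes well above background, and control replicate 1 and high-fat replicate 1 (56.4%) were the dimmest of the 8. Hepatocyte markers bore out the labelled tissue, with all 12 of 12 measured and a mean level of 5.335 to 5.67 on control and 5.49 to 5.85 on high-fat arrays. In bulk liver RNA, fewer cells of a type and less RNA per cell cannot be told apart.

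Most chemokine genes were read by 2 kinds of 60-base probe. Those with Agilent's own probe names are called catalogue probes here (57), and those of a second naming series are called custom probes, after their name prefix (53). The probes of 4 ligands are shown: Ccl11, Ccl24 and Cxcl12, whose values depended on the probe read, and Ccl21, whose 2 probes gave like changes. For each, the first 30 of 60 bases are printed as the files give them, all in lower case since no base is singled out.
Ccl11 catalogue: ctttaacgtgccatcatgccaagccagaat
Ccl11 custom: aaagaatcaccaacaacagatgcacgctga
Ccl21 catalogue: tgcttcacagtccaactcacaggcaaagag
Ccl21 custom: aaagagtgtctcccagggaaggaagaagga
Ccl24 catalogue: gacaatggactgaacctctgaactgtaatc
Ccl24 custom: aaactcggctgaaatggaggatttcaacgg
Cxcl12 catalogue, record NM_001033883: atgtggtgaatactgtattttgtttcagtt
Cxcl12 custom, record NM_001033883: agggagatgaatttgtgtatcaattccgct
Cxcl12 catalogue, record NM_022177: gctgtaagcctcctactgtatgtgggaatt
Cxcl12 custom, record NM_022177: aataaaatgccaactgtttcatgctgtaag
The 2 probes of Ccl11 and the 2 of Ccl21 each name the same transcript record, and neither pair shares a run longer than 6 bases, so each pair samples different stretches of its transcript. The 4 Cxcl12 probes fall on 2 records of the gene. Over all members, 8 of 65 pairs of probes of the same gene shared a run of at least 20 bases.

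Of the 52 genes, 30 were well above background on all 8 arrays by at least 1 probe. They included the ligands Ccl21, Ccl19, Ccl5, Ccl6, Ccl9, Ccl24, Cxcl1, Cxcl12, Cxcl16 and Cx3cl1, and 8 receptors, among them Cxcr3, Cxcr4 and Cx3cr1. A gene was tested when a probe was well above background on at least 4 of the 8 arrays, counted without regard to diet. That held for 40 genes (76.9%), against 72.9% of all gene names. Tested were 15 of 20 CC ligands, 11 of 12 CXC ligands, both XC or CX3C ligands and 12 of 18 receptors.

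The genes that were not tested were mostly ligands of lymphoid and barrier tissue and receptors of migrating leukocytes. Ccl7, Ccl17, Ccl20, Ccl25, Ccl28, Ccr2, Ccr8, Cxcr5 and Cxcr6 were well above background on fewer than 4 arrays by every probe. Ccr3, Cxcl3 and Xcr1 were above background on none of the arrays. For several ligand and receptor pairs this left only 1 side measured. The eotaxin receptor Ccr3 was below the limit beside Ccl11 and Ccl24, Ccr2 beside its ligand Ccl2, Cxcr5 beside Cxcl13 and Cxcr6 beside Cxcl16. No gene was above background on all arrays of a group and on at most 1 of the other. A probe that is not well above background only bounds a level, and such a gene may still be transcribed in a few cells.

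**Figure D1:**
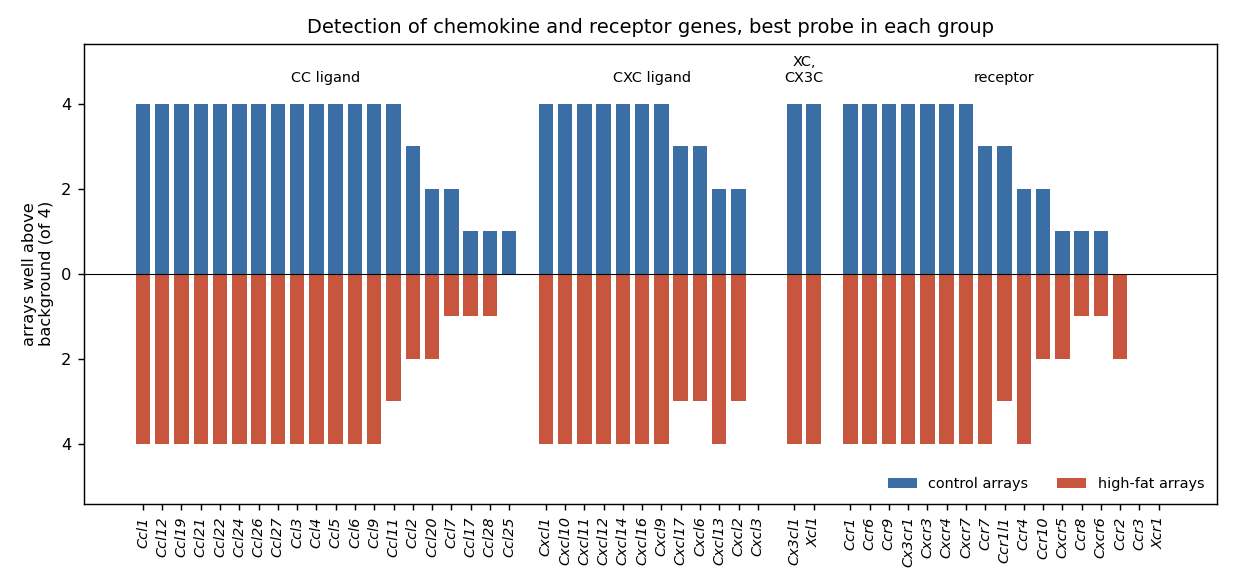
Number of arrays, of 4 in each diet group, on which each gene drawn was well above background by its best probe in that group. Control arrays are drawn upward in blue and high-fat arrays downward in red; Ccr3, Cxcl3 and Xcr1 have no bar, and Ccl11 has 4 control and 3 high-fat arrays.

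By the brightest probe of each gene, the members that passed were 3 ligands, all lower on the high-fat diet. The eotaxin Ccl11, the lymphoid-tissue chemokine Ccl21 and the transmembrane chemokine Cxcl16 were lower, no gene was higher, and 37 of the 40 tested genes did not pass. Among all 18594 genes tested, 0.871% were called, 0.522% lower and 0.35% higher. The tested chemokine and receptor genes had a median log2 change of -0.23, with 27 negative and 13 positive, beside a median of 0.00 over all tested genes. At an unadjusted p under 0.05, 10 members were lower and 3 higher, beside 8.39% and 7.21% of all tested genes. The groups did not overlap for 8 members that were lower (Ccl1, Ccl11, Ccl21, Cx3cl1, Cxcl1, Cxcl16, Cxcr3 and Cxcr4) and 3 that were higher (Ccl24, Ccl27 and Cxcl12), beside 6.26% lower and 4.87% higher, or 11.1% in either direction, of all tested genes. At the level of probes, 4 of 73 tested member probes were lower and 1 was higher, beside 0.529% and 0.377%, or 0.907% in either direction, of all tested probes.

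**Figure D2:**
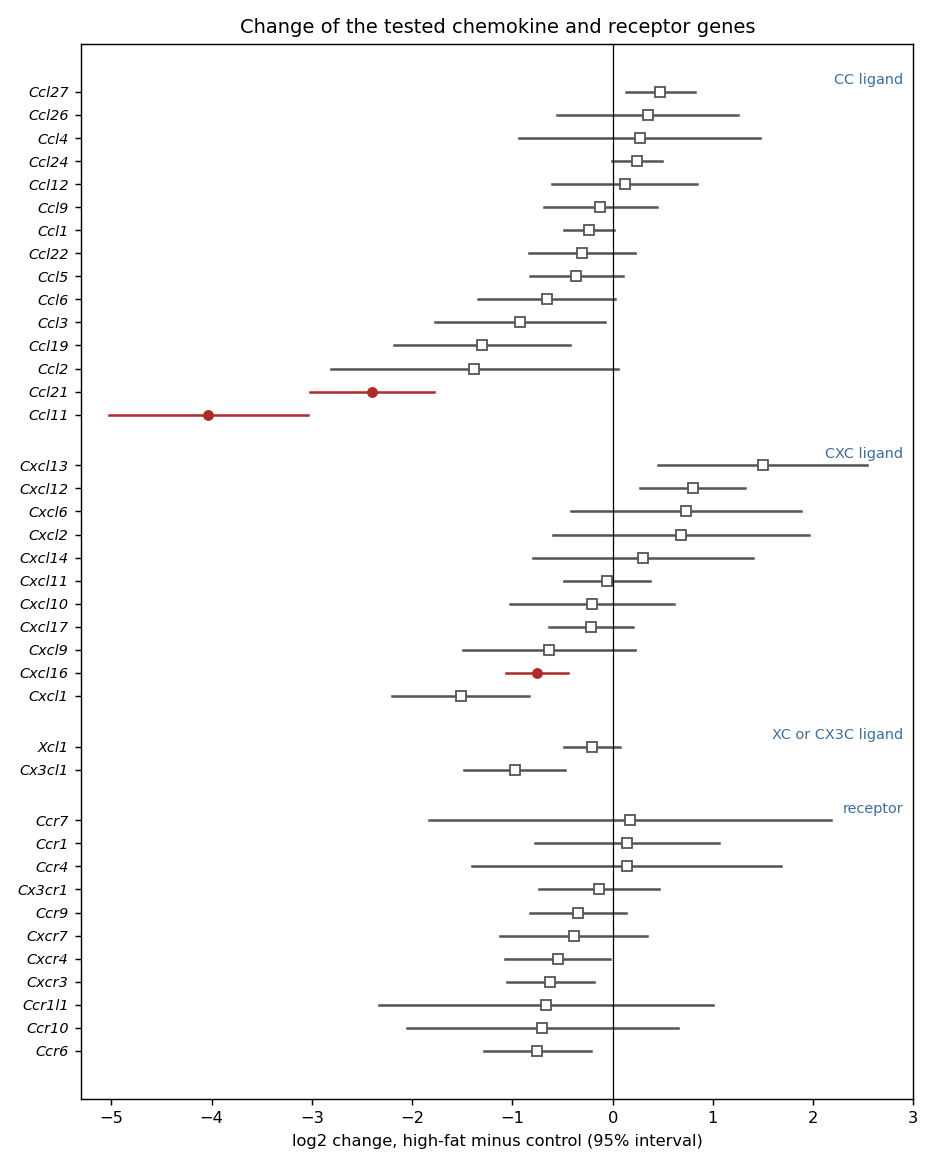
Log2 change, high-fat minus control, of tested genes by their brightest tested probe, with 95% intervals from limma on 4 arrays per group, ordered by role. Red filled circles are the 3 genes that passed (Ccl11, Ccl21 and Cxcl16), and grey open squares are genes that did not.

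Ccl11, or eotaxin, draws eosinophils through Ccr3. Its catalogue probe (chromosome 10, 70283679 to 70283738, plus strand, rn4) read -2.34, -3.91, -2.46 and -4.18 on control arrays 1 to 4 and -6.98, -7.17, -7.73 and -7.14 on high-fat arrays 1 to 4. Every high-fat array was below every control array, and the controls lay in a higher pair (replicates 1 and 3) and a lower pair (replicates 2 and 4). The means were -3.22 ± 0.96 and -7.25 ± 0.33 (SD, n = 4 per group), which gives a change of -4.03 (95% interval -5.03 to -3.04), or 16.4-fold lower (8.24 to 32.6; adjusted p = 0.0153 by limma). The probe was well above background on 4 control and 3 high-fat arrays. The high-fat values are therefore near the limit of the array, and after normexp, a model-based background correction that lifts dim values, the log2 change was -2.11 (adjusted p = 0.0155).

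The custom probe of Ccl11 stayed under the background limit on all 8 arrays, with values from -9.83 to -7.36. The change of Ccl11 thus rests on 1 probe. Without high-fat replicate 2 its log2 change was -4.06 and the call was lost (adjusted p = 0.0538 by limma). Among markers of eosinophils, the cells that Ccl11 draws, 8 were on the array, 4 were tested and none passed. Their mean level was -5.65 to -4.99 on control and -5.07 to -4.65 on high-fat arrays, with 3 positive changes and 1 negative. Il5ra, the interleukin 5 receptor of these cells, was above background on none of the arrays. Alox15 had a log2 change of 0.35 (adjusted p = 0.22 by limma), and Prg2, a granule protein, 1.19 (adjusted p = 0.256 by limma). Prg2 was well above background on 2 control and 4 high-fat arrays, and after normexp its change was 0.30 (adjusted p = 0.516 by limma).

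Ccl21, with Ccl19 a ligand of Ccr7, guides dendritic cells and naive T cells into lymphatic vessels and lymphoid tissue. Its catalogue probe (chromosome 5, 59239182 to 59239241, minus strand, rn4) read -1.34, -1.41, -0.23 and -1.23 on the controls and -3.43, -3.73, -3.49 and -3.16 on the high-fat arrays. The groups lay far apart, and control replicate 3 was higher than the other controls. The means were -1.05 ± 0.55 and -3.45 ± 0.24 (SD, n = 4 per group), and the change was -2.40 (-3.02 to -1.78), or 5.28-fold lower (3.43 to 8.13; adjusted p = 0.0163 by limma). Its custom probe, on another stretch of the transcript, read -2.19, -2.22, -1.20 and -2.32 on the controls and -4.59, -4.54, -4.10 and -4.04 on the high-fat arrays. Both probes fell alike, the custom probe by 2.34 on the log2 scale (adjusted p = 0.0163 by limma). Without control replicate 3 the catalogue probe had -2.13 (adjusted p = 0.0195), and without high-fat replicate 2 it had -2.31 and lost its call (adjusted p = 0.0541). Rodents carry near-identical copies of Ccl21, which these probes may read together.

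Ccl19, the second ligand of Ccr7 and a neighbour of Ccl21 on chromosome 5, ran lower without passing. It read -0.34, -1.66, -0.40 and -1.27 on the controls and -2.35, -2.75, -1.35 and -2.44 on the high-fat arrays. High-fat replicate 3 lay within the range of the controls and the other high-fat arrays below it. Its log2 change was -1.30 (-2.18 to -0.42; adjusted p = 0.168 by limma), and -1.10 by its custom probe. Ccl27, a chemokine of epithelia whose probe lies beside both on rn4, had the opposite sign. It read -1.62, -1.99, -1.71 and -1.89 on the controls and -1.37, -1.16, -1.16 and -1.60 on the high-fat arrays, with no overlap and a narrow gap. The log2 change was 0.48 (0.13 to 0.83; adjusted p = 0.194). The 3 probes lie between 59199811 and 59239241, a span of 39.4 kb. The receptor Ccr7 had 0.18 with a wide interval, -1.83 to 2.18, by its custom probe. Its catalogue probe, well above background on 2 control and 3 high-fat arrays, had 0.50 (-0.05 to 1.06, adjusted p = 0.373 by limma).

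Marker lists of the cells that make or follow these ligands were set beside Ccl21. Lymphatic vessel markers, Ccl21 left out, had 1 of 6 tested members higher and none lower, with a median log2 change of 0.05 and a mean level of -3.845 to -3.44 on control and -3.41 to -3.10 on high-fat arrays. The higher one was Reln, a secreted matrix glycoprotein, with 1.335 (adjusted p = 0.0149 by limma), while Lyve1, a hyaluronan receptor also found on liver sinusoids, had 0.96 (adjusted p = 0.071). The remaining lymphatic markers had changes from -0.33 (Pdpn) to 0.05 (Prox1) and did not pass. Dendritic cell markers had 1 of 7 tested members lower and a median log2 change of -0.05. Their mean level was -5.26 to -4.83 on control and -5.89 to -5.43 on high-fat arrays, without overlap, that member included. The lower one was Cd207, the lectin langerin, well above background on all control and no high-fat arrays and at least 18.2-fold lower (adjusted p = 0.000322 by limma). The other 6 tested had changes from -0.30 (Batf3) to 0.365 (Clec9a), and none passed. T, B and natural killer cell markers had 1 of 19 tested members lower, Cd3g with -1.44 (adjusted p = 0.0419 by limma). Of the 19, 13 had a negative and 6 a positive change, with a median of -0.25. The others had changes from -0.95 to 0.38 and did not pass, among them Cd3d with -0.695 and Cd3e with 0.02. The mean level of the list was -4.69 to -4.36 on control and -5.06 to -4.71 on high-fat arrays. Ms4a1, the B cell antigen CD20, was above background on none of the arrays. The part of these cells in the change of Ccl21 was not tested.

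Cxcl16 is a membrane-anchored ligand of Cxcr6 and also a scavenger receptor for oxidised lipoprotein. Its catalogue probe (chromosome 10, 57296159 to 57296218, minus strand, rn4) read -1.40, -1.83, -1.46 and -1.73 on the controls and -2.36, -2.41, -2.33 and -2.34 on the high-fat arrays. The high-fat values lay within a narrow band below all controls. The log2 change was -0.75 (-1.06 to -0.44), or 1.69-fold lower (1.36 to 2.09), and its adjusted p of 0.0491 by limma was just under the threshold. Its custom probe had -1.08 and did not pass (adjusted p = 0.262). The call was lost on leaving out any single array, with adjusted p from 0.0734 to 0.133.

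Ligands of neutrophils and of monocytes made the next group. Cxcl1, which draws neutrophils through Cxcr2, read -1.25, -1.76, -1.54 and -1.15 on the controls and -2.96, -2.62, -2.40 and -3.79 on the high-fat arrays (catalogue probe, chromosome 14, 18690468 to 18690527, minus strand, rn4). All high-fat arrays were lower, but the change of -1.52 (-2.20 to -0.83) did not pass (adjusted p = 0.0622 by limma), nor did -1.48 by the custom probe (adjusted p = 0.0535). Cx3cl1, or fractalkine, a membrane-bound ligand that holds monocytes at endothelium, read -2.26, -2.70, -1.99 and -2.09 on the controls and -2.76, -3.42, -3.56 and -3.21 on the high-fat arrays. The ranges met at a narrow gap, at -0.98 (adjusted p = 0.0867), with -0.38 by the custom probe. Its receptor Cx3cr1 had -0.14 (-0.74 to 0.46).

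Ccl2, the main monocyte chemoattractant, was near the detection limit, with 3 control and 2 high-fat arrays well above background. It read -5.85, -6.59, -4.17 and -5.14 on the controls and -6.18, -6.76, -5.99 and -8.33 on the high-fat arrays, with overlap between the groups. Its log2 change was -1.38 (-2.81 to 0.05; adjusted p = 0.343 by limma). The change was -0.25 among arrays of the first slide row and -2.51 among those of the second. Ccl3, a macrophage inflammatory protein, had -0.92 (adjusted p = 0.288), and -0.08 and -1.76 within the slide rows. Its neighbour Ccl4 had 0.27, and Ccl5, a T cell chemokine, -0.36 (-0.83 to 0.11). The receptor Ccr1, which binds Ccl3 and Ccl5, had 0.14 (-0.78 to 1.06) by its custom probe and did not pass. Its catalogue probe was well above background on none of the arrays.

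Kupffer cells, the macrophages of the liver, make several of these ligands. None of 15 tested macrophage markers passed, 13 of 15 had a negative change, the median was -0.26, and the mean level was 0.855 to 1.48 on control and 0.42 to 1.17 on high-fat arrays. Marco, a scavenger receptor of Kupffer cells, had a log2 change of -2.38 (adjusted p = 0.143 by limma). None of 9 tested neutrophil markers passed, with a median of 0.15, and Mpo and Prtn3, their granule enzymes, were above background on none of the arrays. Sinusoidal endothelial markers had a median of 0.00 over 9 tested, with none past the threshold. Stellate cell and portal fibroblast markers had a median of 0.005 over 13 tested, and 1 passed, Lrat, which esterifies retinol and was at least 103-fold higher (adjusted p = 0.00385). Of the 13, 7 had a positive and 6 a negative change, and Vim, Des and Acta2 ran lower without passing (-0.78, -0.70 and -0.52). Whether these cells have a part in the ligand changes was not tested.

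**Figure D3:**
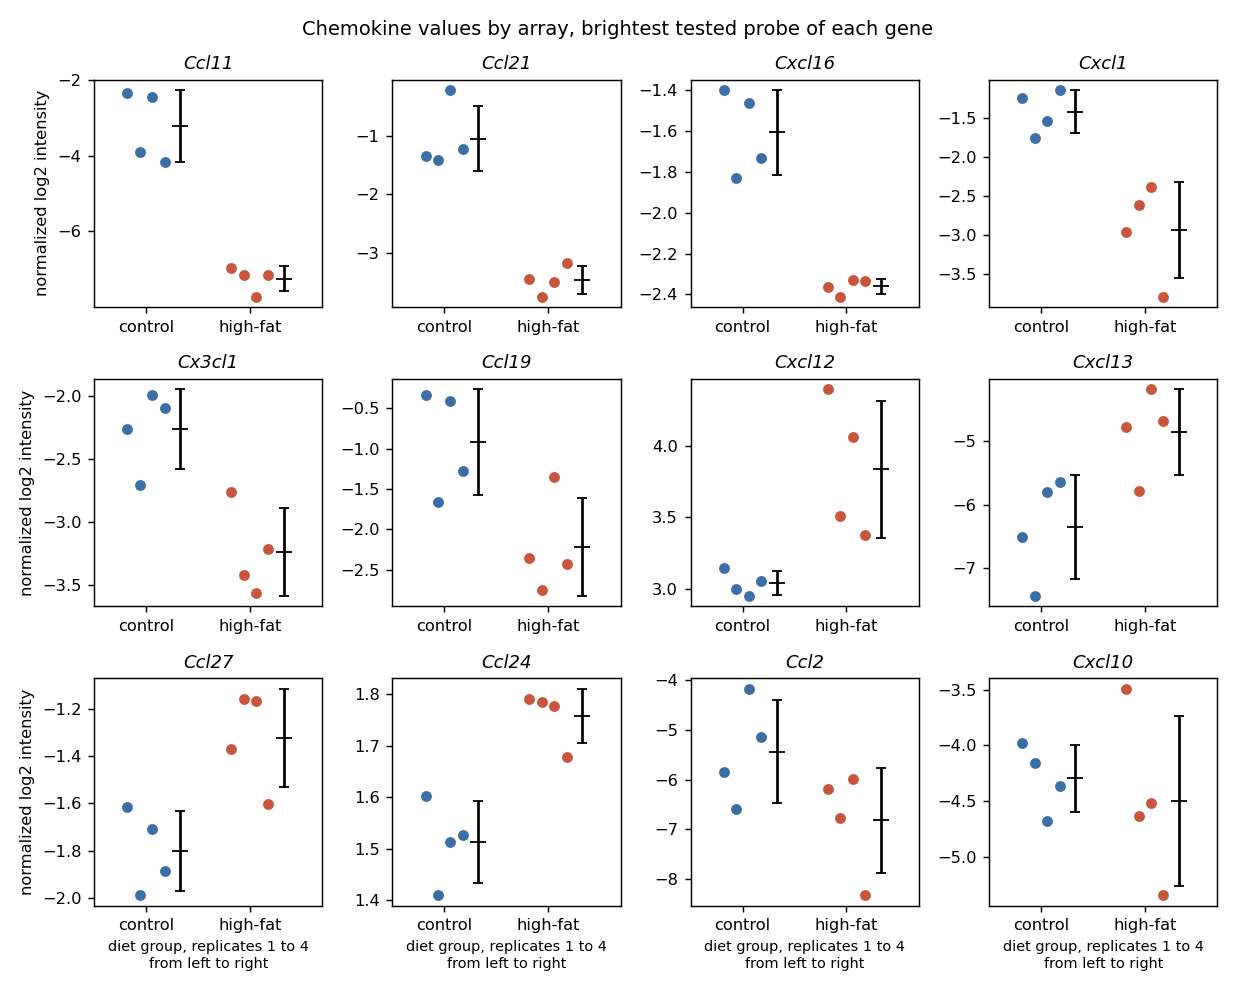
Normalized log2 intensity on each array for 12 chemokines by their brightest tested probe, controls in blue and high-fat in red, with replicates 1 to 4 from left to right in each group; black bars are the mean ± SD of 4 arrays. The groups do not overlap for Ccl11, Ccl21, Cxcl16, Cxcl1, Cx3cl1, Cxcl12, Ccl27 and Ccl24, and each panel has its own vertical scale.

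Interferon-induced ligands of Cxcr3 showed no change that passed. Cxcl10 read -3.98, -4.16, -4.68 and -4.37 on the controls and -3.49, -4.63, -4.52 and -5.35 on the high-fat arrays, so that the high-fat arrays ran on both sides of the controls. Its log2 change was -0.20 (-1.02 to 0.62; adjusted p = 0.849 by limma), and it was 0.083 without high-fat replicate 4. Cxcl9 had -0.63 (-1.49 to 0.22), and Cxcl11 -0.05, with 0.11 by its custom probe. Their receptor Cxcr3, carried by activated T cells, read -2.89, -3.60, -3.39 and -3.18 on the controls and -4.16, -3.77, -3.64 and -3.98 on the high-fat arrays. The gap between the groups was small, and the change of -0.62 (-1.06 to -0.19) did not pass (adjusted p = 0.177).

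Some ligands ran higher, and none passed by its brightest probe. Cxcl12, which retains leukocytes and progenitors through Cxcr4, was read on 2 transcript records. On record NM_001033883 the catalogue probe read 3.15, 3.0, 2.95 and 3.06 on the controls and 4.40, 3.51, 4.07 and 3.37 on the high-fat arrays. The controls were tight and all high-fat arrays lay above them, and the change was 0.80 (0.28 to 1.32; adjusted p = 0.156 by limma), or 0.75 by the custom probe (adjusted p = 0.217). On record NM_022177 the changes were 0.23 (adjusted p = 0.83) and 0.12 (adjusted p = 0.914), and the groups overlapped for both probes. The difference between the records was not tested. The receptors had negative changes that did not pass, Cxcr4 with -0.55 (adjusted p = 0.304) and Cxcr7, now named Ackr3, with -0.39.

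Cxcl13, which draws B cells through Cxcr5, was well above background on 2 control and all 4 high-fat arrays by both probes. The custom probe, brighter on average, read -6.51, -7.44, -5.81 and -5.65 on the controls and -4.77, -5.79, -4.18 and -4.68 on the high-fat arrays, with a small overlap and a log2 change of 1.50 (0.46 to 2.54; adjusted p = 0.176 by limma). The catalogue probe read -7.64, -6.82, -6.76 and -6.36 on the controls and -4.57, -5.84, -4.64 and -4.93 on the high-fat arrays. By this probe the groups were apart, with a change of 1.90 that just missed the threshold (adjusted p = 0.0514). The catalogue probe passed in 4 of 19 alternatives, with an adjusted p down to 0.0337 by limma, and the custom probe in none of 20. After normexp the changes of the custom and catalogue probes were 0.57 and 0.645, and neither passed.

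Ccl24, an eotaxin that shares Ccr3 with Ccl11, was higher by 1 of its 2 probes; it is named here after its values were seen. The custom probe read -4.46, -5.10, -4.46 and -4.43 on the controls and -2.76, -2.73, -2.94 and -3.61 on the high-fat arrays. All high-fat arrays were above all controls, and the log2 change of 1.60 (1.05 to 2.15), or 3.04-fold, passed (adjusted p = 0.0337 by limma). The catalogue probe, on the same record, read 1.60, 1.41, 1.51 and 1.53 on the controls and 1.79, 1.78, 1.78 and 1.68 on the high-fat arrays. It had no overlap either but a change of only 0.24 (-0.01 to 0.50; adjusted p = 0.339). The call of the custom probe was lost in 11 of 19 alternatives, among them 7 of 8 single left-out arrays. Ccl11 and Ccl24 thus had opposite signs, each with a call that rests on 1 of its probes.

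Other members had smaller changes or probes that disagreed. Among CC ligands the log2 changes were -0.66 for Ccl6 and -0.12 for Ccl9, a pair of macrophage chemokines of rodents, -0.30 for Ccl22, 0.35 for Ccl26 and -0.24 for Ccl1, whose groups did not overlap and whose values lay between -2.69 and -2.33 on all arrays. Among CXC ligands they were 0.31 for Cxcl14, -0.22 for Cxcl17 and 0.73 for Cxcl6, for which high-fat replicate 4 was left out because its spot was flagged. Cxcl2, a neutrophil chemokine next to Cxcl1 on chromosome 14, had 0.68 (-0.59 to 1.96) by its tested probe. Its custom probe was well above background on control replicates 3 and 4 only, at -4.07 and -5.49, and was not tested. Xcl1, or lymphotactin, had -0.21. None of these passed by any tested probe. For Ccl26, Cxcl6, Cxcl14 and Cxcl17 the probe that was not tested was well above background on none of the arrays. That of Ccl1 was well above background on 2 high-fat arrays only.

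All 12 tested receptors stayed short of the threshold, with 9 negative and 3 positive changes and a median of -0.37. Ccr6, the receptor of Ccl20 on T and B cells, had the smallest p of limma next to Cxcr3. It read -4.44, -5.02, -4.33 and -3.95 on the controls and -5.51, -5.05, -5.01 and -5.16 on the high-fat arrays, meeting near the lowest control, and its change was -0.75 (-1.28 to -0.22; adjusted p = 0.181). Cxcr4 did not overlap between groups in its custom probe, with control replicate 1 at -1.40 and the other controls from -2.34 to -2.28, above the high-fat range of -2.86 to -2.50. Other receptors had changes of -0.70 for Ccr10, -0.66 for Ccr1l1, -0.35 for Ccr9 and 0.14 for Ccr4. None of Ccr10, Ccr1l1, Ccr4 and Ccr7 was well above background on all 8 arrays. By the brightest probe of each, the intervals were all wider than 2.5 on the log2 scale. Ccr1l1 was at -8.27 on high-fat replicate 2, beside -5.24 to -4.90 on the other high-fat arrays. Its custom probe was well above background on none of the arrays.

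Several probes were tested for 29 genes, and in 26 of these their signs matched. The exceptions were Ccl12 (0.12 and -0.45), Ccr9 (-0.35 and 0.18) and Cxcl11 (-0.05 and 0.11), none of which passed by either probe. The largest gap between tested probes of 1 record was that of Ccl24.

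**Figure D4:**
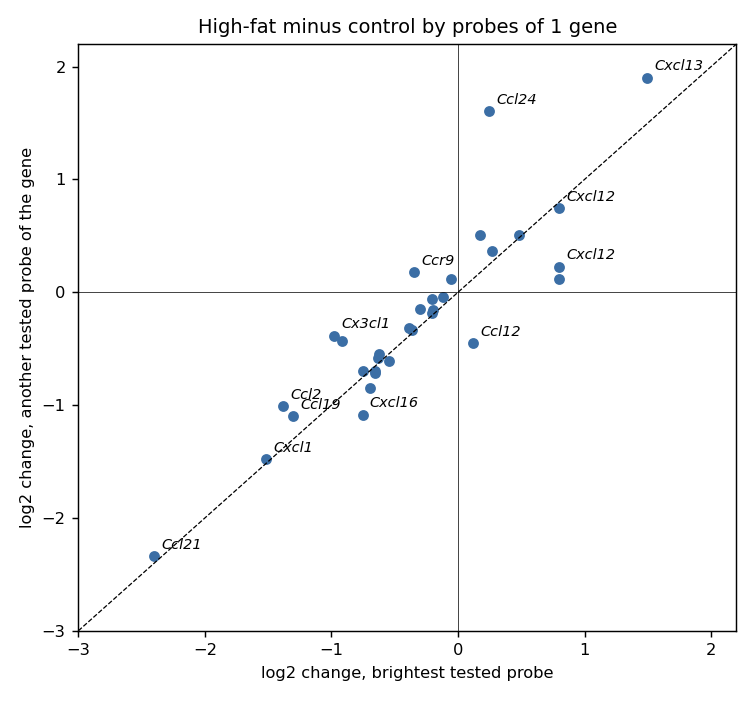
Log2 change, high-fat minus control, of the brightest tested probe of a gene (horizontal) against each other tested probe of that gene (vertical), for genes with several tested probes; the dashed line marks equal change. Ccl21 and Cxcl1 lie on the line, Ccl24 lies well above it, and Cxcl12 has 1 point near the line and 2 below it.

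Genes around the family were read from separate lists. Of 13 tested relatives that the name rule leaves out, such as the platelet chemokines Pf4 and Ppbp, scavenging receptors and other chemoattractant receptors, none passed, and the median log2 change was 0.015. Among them C5ar1, the complement C5a receptor, had -0.85 without overlap between groups (adjusted p = 0.122 by limma). Signalling from chemokine receptors had 22 of 30 tested genes negative, a median of -0.23 and none past the threshold. Its smallest p values were those of the myeloid kinase Fgr (-0.93, adjusted p = 0.112) and the lymphoid kinase Jak3 (-0.87, adjusted p = 0.122). Cytokines and factors that induce chemokine genes had 21 of 27 tested genes negative and a median of -0.155, with none past the threshold. Lymphotoxin beta, Ltb, which sustains Ccl21 in lymphoid tissue, had -0.73 (adjusted p = 0.18), Irf7, an interferon regulatory factor, -0.95 (adjusted p = 0.212), and Tnf, tumour necrosis factor, -0.79 (adjusted p = 0.346). Ifng, the T cell interferon that induces Cxcl9 to Cxcl11, was above background on none of the arrays.

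Genes of the family lie in clusters, and changes of both signs occurred among neighbours. On rn4 the catalogue probes of Ccl2, Ccl7, Ccl11, Ccl12 and Ccl1 lie on chromosome 10 between 70257919 and 70380740. Of these probes, those of Ccl2, Ccl11 and Ccl12 had -1.38, -4.03 and -0.45, and those of Ccl7 and Ccl1 were not tested. The brighter custom probe of Ccl12, which has no rn4 position, had 0.12. The catalogue probes of Ccl5, Ccl9, Ccl6, Ccl3 and Ccl4 lie between 71605854 and 71760324 on the same chromosome, with changes from -0.92 to 0.37. On chromosome 14 Cxcl1, with -1.52, and Cxcl2, with 0.68 by its tested probe, lie side by side.

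RefSeq promoters of build GRCr8 were set beside the changes of the members found in that table. Of the 52 genes 50 matched RefSeq by accession and 39 had a promoter. The 250 bases before the start are printed for Ccl21, which passed by both probes, and Cxcl1, which ran lower by both without passing. Capitals mark a match to the NF-kB consensus, the binding motif of the inflammatory factor NF-kB.
Ccl21, chr5:61777516-61777765, minus strand: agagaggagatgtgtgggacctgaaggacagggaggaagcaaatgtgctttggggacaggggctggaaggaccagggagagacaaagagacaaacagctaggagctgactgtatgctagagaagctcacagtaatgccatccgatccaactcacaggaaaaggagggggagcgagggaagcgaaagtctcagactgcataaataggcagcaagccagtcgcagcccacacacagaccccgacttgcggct
Cxcl1, chr14:17479322-17479571, minus strand: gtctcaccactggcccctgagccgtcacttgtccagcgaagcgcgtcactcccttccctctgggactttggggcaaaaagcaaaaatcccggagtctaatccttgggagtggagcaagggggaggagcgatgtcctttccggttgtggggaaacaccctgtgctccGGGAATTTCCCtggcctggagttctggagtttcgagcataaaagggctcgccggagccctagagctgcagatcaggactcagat
The capitals in Cxcl1 are 2 overlapping matches, and Ccl21 had none in this window. Searched on both strands, the NF-kB consensus was found in 9 of the 39 member promoters (23.1%), among them Cxcl1, Cxcl2, Cxcl6, Cxcl10 and Cxcl11 of the chromosome 14 clusters, and in 6.33% of all 33469 promoters. The TATA box letters TATAAA were found in 12 of 39 (30.8%) and in 12.93% of all. Genes with the NF-kB consensus had changes on both sides of 0, with -1.52 for Cxcl1, -0.20 for Cxcl10 and 0.73 for Cxcl6. These are matches of letters and not measured sites.

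The 8 arrays shared 1 slide of 2 rows, and each row held 2 control and 2 high-fat arrays. Within the first and the second row the log2 change was -3.95 and -4.12 for Ccl11, -2.21 and -2.595 for Ccl21, -0.77 and -0.73 for Cxcl16 and -1.28 and -1.75 for Cxcl1. The median of the tested members was -0.22 and -0.28. Leaving out both dim arrays, control replicate 1 and high-fat replicate 1, gave -3.83 for Ccl11 (adjusted p = 0.07 by limma) and -2.505 for Ccl21 (adjusted p = 0.0788), with no member past the threshold.

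**Figure D5:**
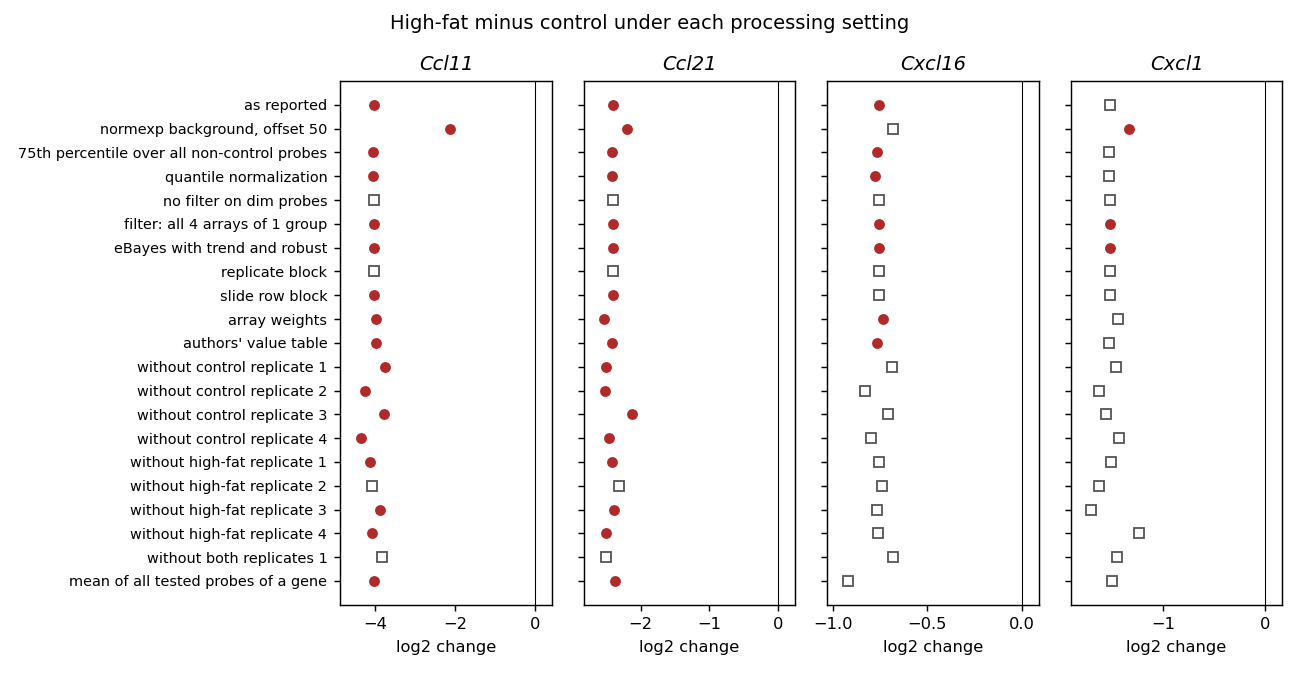
Log2 change of Ccl11, Ccl21, Cxcl16 and Cxcl1 under each processing setting, with red filled circles for an adjusted p under 0.05 by limma and grey open squares for others. All 4 genes keep a negative change in every setting drawn, and Ccl11 is nearest to 0 after normexp, at -2.11; each panel has its own horizontal scale.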

How the data were processed

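Sample titles gave each array's group and number. Per the file headers, Agilent Feature Extraction 10.7.3.1 read the spot intensity, took off background and marked spots well above it. Log2 values of the same 46883 probes are in the authors' deposited table, and their scaling was not given in the sources used here. Compared with scanner values scaled by the 75th percentile over every non-control probe, its columns correlated at 0.9991 to 0.9996, with 98.47% to 98.87% of values within 0.05, so it has higher values for brighter spots and no centring per probe. Its column medians were -3.10, -3.21, -3.14 and -3.18 for control and -3.15, -3.20, -3.16 and -3.20 for high-fat replicates 1 to 4. It served as an alternative.

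Control spots and flagged outliers were left out of 62976 spots per array, and saturated spots were not found. Log2 of the processed signal was set relative to each array's 75th percentile over the probes above background on every array, and repeat spots were averaged per probe. The 31546 probes that were above background on 4 or more arrays, of either group, entered limma 3.58.1 (lmFit, eBayes; R 4.3.3), and p was adjusted over all of them by Benjamini-Hochberg, with a threshold of 0.05. A gene stands for its tested probe with the highest mean, and Ccl21b, which has the record of Ccl21, was counted as Ccl21. A lower bound sets the brighter group against the lowest measurable signal of the dimmer one. The script was tested on simulated data. The number of arrays limits the precision.

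The members and gene lists were chosen with earlier results of these data known. Named with all values were Ccl11, Ccl21, Ccl2 and Cxcl10, members past the threshold, and up to 8 more with the smallest p. Genes whose probes had opposite signs, and up to 4 genes of each other list, were named by their changes. Details of Ccl24, Ccl3, Cxcr4 and Ccl1, and the second probes, were added after the data were seen. Of these genes, Ccl24 has values per array, Cxcr4 and Ccl1 have ranges, and Ccl3 has changes only. Other members are given by their change, and single values of some are not reported here. Promoters are of RefSeq GRCr8, and probe positions are those of the files, on rn4.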

Additional observations from a re-analysis of the deposited data

Results flagged for a closer look

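Sets of 4 values were checked for part of the genes named here and for the array measures. In 5 of 74 sets the highest or lowest array lay far from the other arrays of its group, and about 1 set in 20 would do so by chance. Ccr1l1 and Cxcl2, among others, were not in the sets checked. Ccl21 was at -0.23 (normalized log2 intensity) on control replicate 3, beside -1.41 to -1.23 on the other controls. High-fat replicate 1, a dim array, had Ccl12 at -3.99, beside -3.01 to -2.95. High-fat replicate 3 had the Kupffer cell receptor Marco at -2.47, beside 0.35 to 0.50. High-fat replicate 4 had Ccl24 at 1.68 by its catalogue probe, beside 1.78 to 1.79, and by its custom probe it was the lowest of its group as well, at -3.61. Control replicate 1, the dimmest array, had Cxcr4 at -1.40, beside -2.34 to -2.28.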

How the results depend on the processing

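The median log2 change of the tested members stayed between -0.33 and -0.21 over 20 alternatives. The count of members that were lower, 3 as reported, was within 1.5 times of that in 16 of 20. It was 0 without the filter on dim probes (52 genes tested), 0 with the replicate block, which treats equal numbers as pairs and left 1 gene called on the whole array, and 0 without both dim arrays. Leaving out single arrays gave 0 to 2 lower, 0 without high-fat replicate 2. The count that were higher, 0 as reported, was 1 (Ccl24, with 0.92) by the mean of all tested probes of a gene. The call was kept in 16 of 20 alternatives for Ccl11 and for Ccl21, and in 6 of 20 for Cxcl16, and Cxcl1 passed in 3. Signs turned for Ccl12 (without single arrays -0.125, lacking control replicate 1, to 0.375; -0.17 by the mean of probes, -0.45 by the other probe), for Cxcl11 (without single arrays -0.18 to 0.071, with 0.071 lacking control replicate 3 and 0.012 lacking high-fat replicate 2; 0.031 by the mean of probes, 0.115 by the other probe), for Cxcl10 (without single arrays -0.54 to 0.083, the latter lacking high-fat replicate 4) and for Ccr9 (0.18 by the other probe). The cause was not tested. The labels do not say whether equal replicate numbers are pairs. Deviations of arrays with the same number correlated at -0.12, 0.26, 0.23 and 0.01, which does not decide it. Signal over background limits Ccl11 on high-fat arrays, Ccl2, Cxcl13 and most receptors.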
